A study of Mus musculus with 6 samples.

Results

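The genes Ecm1, Tgm2, Serpinf1, Il24, Lif and Penk encode proteins that cells secrete or that act on the extracellular matrix. These 6 genes were chosen by symbol for their higher values in the NLRP3KO T helper type 2 (Th2) libraries, out of 23415 gene entries with a usable value. Their genotype difference in Th2 cells is therefore a description of the choice, while their level in naive cells was not part of it. NLRP3 is the sensor protein of an inflammasome, the complex that activates caspase-1.

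RNA was sequenced from CD4 T cells of C57/Bl6j mice aged 7 weeks, either NLRP3KO (lacking NLRP3) or wild type (WT). Each genotype gave 1 library of Th2 cells at day 3, 1 at day 6 and 1 of naive cells, 6 libraries in all. For the Th2 cultures, naive cells from spleen and lymph nodes were kept in RPMI medium on CD3/CD28-coated plates, with 10 ng/ml of IL-4 and a blocking antibody to interferon gamma. The 4 Th2 libraries were made from RNA depleted of ribosomal RNA and the 2 naive libraries from purified mRNA, so culture and RNA preparation cannot be told apart in a comparison of Th2 with naive cells. Since each group is a single library, the differences below could not be set against replicate error and carry no p-value. The labels do not say how many mice each library came from or whether NLRP3KO and WT mice were littermates.

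A naive CD4 T cell that meets its antigen in the presence of IL-4 becomes a Th2 cell, which is known for secreting IL-4, IL-5 and IL-13. Ecm1, extracellular matrix protein 1, is known in mouse Th2 cells for favouring their exit from lymph nodes. Tgm2 is transglutaminase 2, an enzyme that crosslinks proteins inside and outside cells, and Serpinf1 encodes PEDF, a secreted serpin that does not inhibit proteases. Il24 encodes a cytokine of the IL-10 family, Lif encodes leukemia inhibitory factor of the IL-6 family, and Penk encodes proenkephalin, the precursor of the opioid peptides called enkephalins.

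Values are FPKM, a fragment count divided by transcript length and by the library's mapped total, each printed with its deposited lower and upper bound. The libraries differed widely in depth. An estimated 23087 (NLRP3KO) and 26998 (WT) fragments lay on genes at day 3, 5066 and 28386 at day 6, and 1310589 and 1529821 in naive cells. A floor of 3 fragments is used below as the most that a value of 0 allows, and intervals and floors cover counting error only. Nlrp3 itself was at 0.0569 FPKM in naive WT cells and at 0 elsewhere, under its floor in all 6 libraries, so the knockout could not be checked. Of 6 T cell markers, 5 were above 0 in NLRP3KO and 6 in WT Th2 cells at day 3, with summed FPKM of 47.3 and 39.9, and at day 6 the counts were 4 in NLRP3KO and 6 in WT, with sums of 36.6 and 58.0. In bulk RNA, a lower share of cells that express a gene and less RNA of it per cell cannot be told apart.

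Ecm1 had the highest FPKM of the 6 genes in each of the 6 libraries. It lies on chromosome 3 at 95538071 to 95543492 (mm9), and no other gene entry overlaps it. At day 3 its FPKM was 58.8 (bounds 42.0 to 75.6) in the NLRP3KO library, from an estimated 49 fragments, against 6.62 (0.946 to 12.3) in the WT library, from 7 fragments. The bounds did not overlap, and the ratio of scaled fragments was 7.85 with a 95% exact counting interval of 3.54 to 20.5, which compares these libraries and not the genotypes. At that level Ecm1 ranked 36 of 6336 genes above 0 in NLRP3KO, and 496 of 6730 in WT.

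The day 6 libraries gave like levels of Ecm1. At day 6 its FPKM was 57.3 (26.4 to 92.5) in NLRP3KO, from 13 fragments, against 8.09 (1.01 to 15.2) in WT, from 8 fragments. These bounds did not overlap either, the counting ratio was 6.25 (2.40 to 17.4), and the ranks were 28 of 2765 genes in NLRP3KO and 457 of 6848 in WT. In naive cells Ecm1 had 15.7 FPKM (12.4 to 19.1) in NLRP3KO and 9.90 (7.62 to 12.2) in WT, values that stood apart as deposited by a small margin. After scaling of the libraries the naive difference was 0.19 on the log2 scale, with a counting ratio of 1.19 (0.869 to 1.64).

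Tgm2, on chromosome 2 at 157942141 to 157972128, had an FPKM of at most 1.57 in every library other than those of NLRP3KO Th2 cells. At day 3 it had 17.3 FPKM (11.3 to 23.1) in NLRP3KO, from 29 fragments, against 0.486 (0 to 1.40) in WT, from 1 fragment. The counting ratio was 32.5, and because it rests on 1 fragment in WT its interval ran from 5.39 to 1328. At day 6 Tgm2 had 9.06 (2.17 to 17.4) in NLRP3KO and 1.57 (0 to 3.01) in WT, from 4 and 3 fragments. These bounds overlapped, and the counting ratio of 5.13 had an interval of 0.868 to 35.0 that includes 1. Naive cells held 0.191 (0 to 0.453) in NLRP3KO and 0.584 (0.247 to 0.925) in WT, from 2 and 9 fragments in far deeper libraries.

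Serpinf1 lies on chromosome 11 at 75223531 to 75236125. Its FPKM at day 3 was 10.9 (4.22 to 18.3) in NLRP3KO, from 8 fragments, against 1.23 (0 to 3.32) in WT, from 1 fragment, with a counting ratio of 8.97 (1.20 to 398). At day 6 it had 5.72 (0 to 15.5) in NLRP3KO, from 1 fragment, and was listed at 0 in WT, where 3 fragments would have given 3.57. A single fragment does not set the libraries apart at that time. Naive NLRP3KO cells were listed at 0 and naive WT cells had 0.332 (0 to 0.732), both under their floors of 0.645 and 0.439.

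Il24, on chromosome 1 at 132778651 to 132783988, was seen only in the NLRP3KO Th2 libraries among the 6. At day 3 it had 19.5 FPKM (7.54 to 30.2) in NLRP3KO, from 10 fragments, and was listed at 0 in WT, where 3 fragments would have given 4.45. With WT placed at that floor the log2 difference was 1.84, and the lower limit of the counting interval was 2.51-fold. At day 6 Il24 had 15.9 (0 to 34.5) in NLRP3KO, from 2 fragments, and was listed at 0 in WT with a floor of 4.78. The day 6 level in NLRP3KO was itself under its floor of 20.7, so no fold is given there. Both naive libraries were listed at 0, with floors of 0.864 in NLRP3KO and 0.588 in WT, so the gene was not detectable before culture at a depth far above that of the Th2 libraries.

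Lif showed the smallest genotype difference of the 6 genes at day 3. It lies on chromosome 11 at 4157571 to 4172517, where 2 start sites are annotated in the deposited tables. At day 3 it had 11.5 FPKM (6.34 to 16.7) in NLRP3KO, from 20 fragments, against 3.63 (0.881 to 6.77) in WT, from 8 fragments. These bounds overlapped slightly, and the counting ratio was 2.80 (1.18 to 7.36). At day 6 Lif had 4.22 (0 to 14.7) in NLRP3KO, from 2 fragments and under the floor of 6.33, and was listed at 0 in WT with a floor of 1.46. In naive cells the order was the other way, 0.266 (0 to 0.711) in NLRP3KO and 0.664 (0.242 to 1.09) in WT, from 3 and 11 fragments, with overlapping bounds.

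Penk, besides Ecm1, exceeded an FPKM of 1 in both naive libraries. It lies on chromosome 4 at 4060683 to 4065592. At day 3 it had 11.6 FPKM (4.47 to 19.4) in NLRP3KO, from 8 fragments, and was listed at 0 in WT, with a floor of 3.52. With WT placed there the log2 difference was 1.42, and the lower limit of the counting interval was 1.91-fold. At day 6 it had 12.2 (0 to 27.3) in NLRP3KO, from 2 fragments and under the floor of 16.4, and was listed at 0 in WT with a floor of 3.78. Naive cells had 2.35 (0.910 to 3.64) in NLRP3KO and 1.06 (0.310 to 1.70) in WT, from 10 and 7 fragments, with overlapping bounds and a scaled log2 difference of 0.22.

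**Figure D1:**
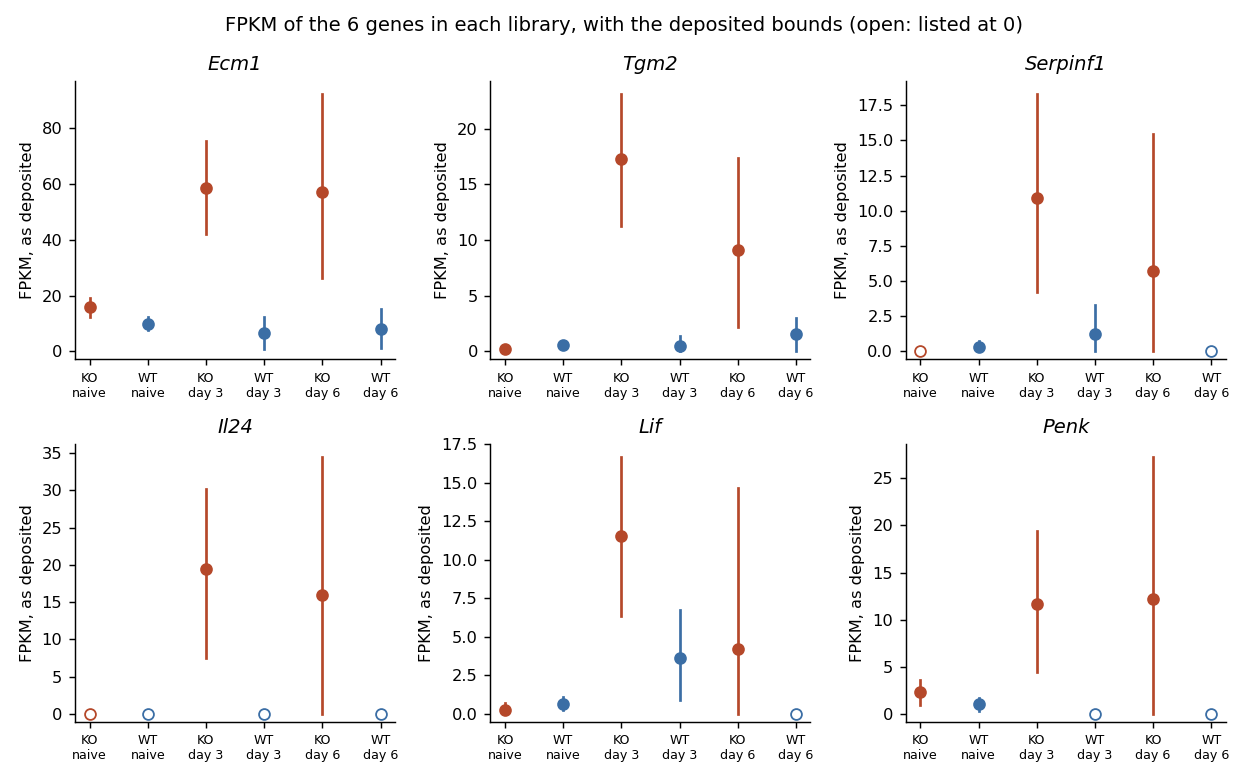
FPKM as deposited (vertical axis, linear, own range in each panel) of the 6 genes in the 6 libraries, 1 point per library, with lines for the deposited lower and upper bounds and open points for values listed at 0. In each panel the NLRP3KO day 3 point is above the WT day 3 point, and at day 6 the bounds are apart for Ecm1 alone, at 57.3 in NLRP3KO and 8.09 in WT.

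Set beside all genes, the day 3 difference of the 6 genes was large, as their choice implies, and the day 6 difference rested on few fragments. Differences are log2 of scaled FPKM plus 1, and a gene was kept where either library of the pair reached an FPKM of 1. At day 3 all 6 genes were at least 2-fold higher in NLRP3KO, a count fixed by the choice of the genes, where 25.4% of the 5749 genes kept were. Their median was 3.44, or 2.20 with Il24 and Penk at their floors, beside 0.11 over all genes kept. Asking in addition for bounds that do not overlap left 5 of the 6, all but Lif, where 2.16% of the genes kept passed. The genes were chosen on the Th2 libraries, so their median and bounds, here and at day 6, describe the choice as well.

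At day 6 all 6 were again at least 2-fold higher, where 20.9% of 5336 genes were, but the bounds were apart for Ecm1 alone, where 0.225% of the genes kept passed. The median of the 6 differences was 3.17 beside -1.52 over all genes, a comparison in which 2653 genes were listed at 0 in the shallow NLRP3KO library. Only Ecm1 and Tgm2 had a value above the floor in either library, with log2 differences of 2.57 and 2.02 and a median of 2.30. Over both times, 5.53% of the 3907 genes kept at both were at least 2-fold higher at both, as were all 6, which the choice of the genes again fixes. Ecm1 and Tgm2 were above 0 in all 4 Th2 libraries, as were 77 of the 216 genes higher at both times.

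In naive cells, which were not part of the choice, none of the 6 genes was at least 2-fold higher. With a pseudocount of 1 that call was out of reach for all but Ecm1. A 2-fold difference needs 1 log2 unit. Log2 of scaled FPKM plus 1 in naive NLRP3KO cells was 0.655 for Penk, 0.0912 for Lif and 0.0659 for Tgm2. It was 0 for Il24 and Serpinf1. Ecm1 and Penk passed the minimum, and 0.210% of the 9985 genes kept were at least 2-fold higher, so a count of 0 is near that background. The other 4 genes were under 1 FPKM in both naive libraries, and Lif and Tgm2 had counting ratios of 0.299 (0.0536 to 1.13) and 0.244 (0.0256 to 1.18), with intervals that include 1.

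**Figure D2:**
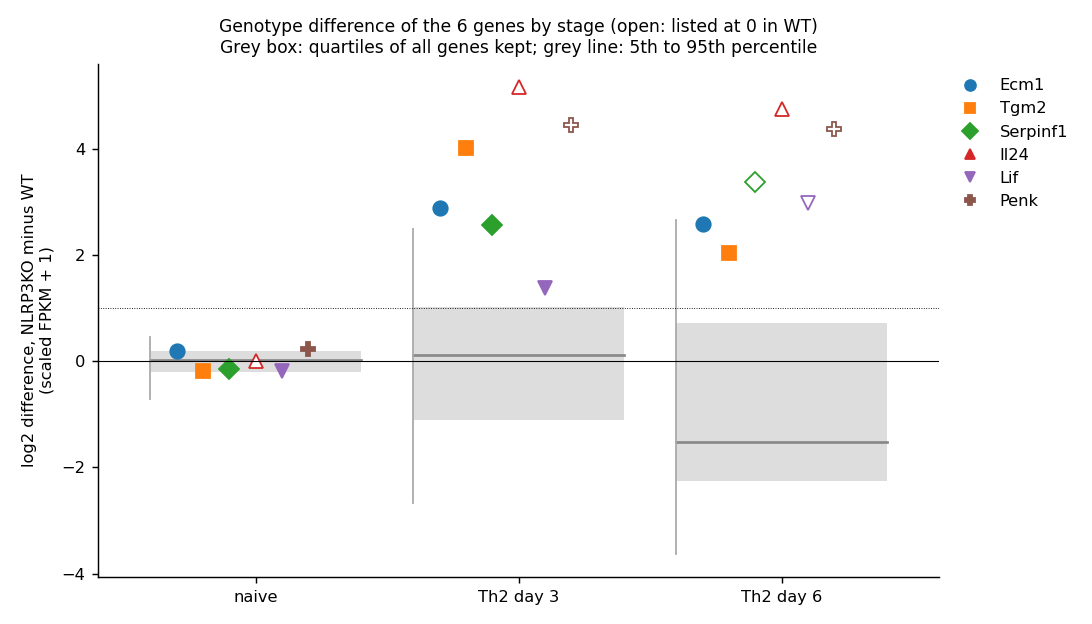
Genotype difference of each gene, NLRP3KO minus WT, as log2 of scaled FPKM plus 1 (vertical axis) in naive cells and at day 3 and day 6. Open symbols mark genes listed at 0 in WT (Il24 is at 0 in both naive libraries), the dotted line is a 2-fold difference, grey boxes span the quartiles and the grey bar is the median of all genes kept, 0.11 at day 3 and -1.52 at day 6, and grey lines run from the 5th to the 95th percentile. The 6 symbols lie near 0 in naive cells and above the dotted line at both Th2 times. In naive cells only Ecm1 and Penk passed the minimum. The pseudocount of 1 draws low values towards 0 there, so the symbols do not show equal levels.

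Within each genotype, cultured cells were also set against naive cells. In NLRP3KO, day 3 levels were at least 2-fold above naive levels for all 6 genes, where 10.8% of 10048 genes were, with a median of 4.40 (4.39 with Il24 and Serpinf1 at their naive floors) beside -0.53 over all genes. The log2 difference was 4.92 for Tgm2, 4.44 for Ecm1, 4.33 for Lif and 3.78 for Penk, and the order of these 4 changed with the scaling and the pseudocount. Ecm1 was the lowest as deposited, at 1.84, and the highest with a pseudocount of 5, at 3.63. Other features of the libraries differed alongside. Summed unscaled FPKM of the T cell markers was 47.3 at day 3 and 1734 in naive cells, or 84.0 and 424.6 after scaling. The ribosomal RNA precursor Rn45s had 63242 and 7819, unscaled. Naive NLRP3KO cells also held B cell markers (summed FPKM 33.0), macrophage and dendritic cell markers (19.8) and Foxp3 (25.03), of which the day 3 library had 0, 0.679 and 0. These naive values rested on 134.4, 62.6 and 247.5 fragments in a library with 1310589 on genes. The day 3 library had 23087, so a 0 there does not show absence. The part of these features in the differences was not tested. Since the NLRP3KO day 3 library also served to choose the genes, this too is a description.

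In WT the same step gave 4 genes that passed the minimum, of which Ecm1, Lif and Serpinf1 were at least 2-fold higher at day 3 than in naive cells, where 9.99% of 9562 genes were. Lif had a log2 difference of 2.77 and a counting ratio of 33.8 (11.8 to 92.3). Ecm1 had 1.75 and a ratio of 4.12 (1.604 to 8.89), from 7 fragments at day 3 and 79 in naive cells, but as deposited, without scaling between libraries, its difference was -0.52. The WT value of Serpinf1 rested on 1 fragment at day 3 and 2 in naive cells, with a ratio of 23.2 (0.394 to 446), and Tgm2 did not pass the minimum. Penk was at 0 in WT at day 3, and a level at its floor there would be 2.58 above the naive level on the log2 scale, so its direction in WT was not detectable at this depth.

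From day 3 to day 6 no gene was at least 2-fold higher in NLRP3KO, where 21.0% of 5207 genes were, and Lif and Tgm2 were at least 2-fold lower, where 51.8% of those genes were. With upper-quartile scaling 5 of the 6 were, all but Penk, where 59.0% of all genes kept were under that scaling. Tgm2 was not at least 2-fold lower as deposited (-0.86), scaled by fragments on genes (-0.60) or with a pseudocount of 5 (-0.86). Lif differed by -1.45 on the log2 scale, with a counting ratio of 0.334 (0.0379 to 1.38), and Tgm2 changed by -1.02, with a ratio of 0.461 (0.118 to 1.31). Both intervals include 1. Ecm1 stayed close to its day 3 level, with a difference of -0.17 and a ratio of 0.886 (0.441 to 1.66).

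In WT, 0 of the 4 genes that passed the minimum were at least 2-fold higher at day 6 than at day 3, where 24.1% of 5592 genes were, and Lif and Serpinf1 were at least 2-fold lower, where 20.2% were. Lif was at 0 at day 6 and had 8 fragments at day 3, and with day 6 at its floor the difference was -1.18. Serpinf1 was under its floor at both times. Ecm1 differed by 0.14, with a ratio of 1.11 (0.353 to 3.60).

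The promoters of Ecm1, Lif and Serpinf1 are printed because a promoter sequence was available for these genes alone among the chosen ones. The sequences show which known factor motifs each of them holds. They are the RefSeq windows from 250 bases before to 50 bases after the start, 5′ to 3′ on the gene's strand of GRCm38.p6, a later build than the mm9 of the tables. Capitals mark an AP-1 site (TGANTCA) in Ecm1 and Lif, and a GATA site (AGATAA) and a core of the hypoxia response element (ACGTG) in Serpinf1.
Ecm1, chr3:95739520-95739819, minus strand: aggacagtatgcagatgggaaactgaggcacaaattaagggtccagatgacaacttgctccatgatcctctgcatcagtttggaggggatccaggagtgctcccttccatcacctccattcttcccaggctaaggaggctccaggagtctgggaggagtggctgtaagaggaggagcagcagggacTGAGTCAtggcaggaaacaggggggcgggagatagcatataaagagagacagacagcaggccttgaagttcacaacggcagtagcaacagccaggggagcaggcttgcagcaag
Lif, chr11:4257318-4257617, plus strand: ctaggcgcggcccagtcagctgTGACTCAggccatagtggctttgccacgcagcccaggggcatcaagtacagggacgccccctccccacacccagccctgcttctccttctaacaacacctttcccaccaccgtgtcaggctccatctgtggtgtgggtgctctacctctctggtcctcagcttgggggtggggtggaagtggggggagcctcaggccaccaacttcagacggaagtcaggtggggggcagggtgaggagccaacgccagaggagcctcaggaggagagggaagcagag
Serpinf1, chr11:75422574-75422873, minus strand: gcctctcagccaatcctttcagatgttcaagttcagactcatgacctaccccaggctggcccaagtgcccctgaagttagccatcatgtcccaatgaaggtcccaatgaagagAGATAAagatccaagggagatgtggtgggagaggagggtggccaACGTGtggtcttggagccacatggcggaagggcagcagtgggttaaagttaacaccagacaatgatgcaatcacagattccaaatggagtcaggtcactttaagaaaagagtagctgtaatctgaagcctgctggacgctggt

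The AP-1 site began at position -64 in Ecm1 and at -228 in Lif, counted from the start of transcription, and 7.79% of 32544 promoters of the same length hold one on either strand. The Serpinf1 promoter held the GATA site at -137 and the hypoxia core at -93, which occur in 11.2% and 19.7% of promoters. The NFAT core GGAAA was found in Ecm1 and Lif, as in 61.5% of promoters, and is left in lower case. None of the 3 windows held a GAS motif (TTCNNNGAA), a STAT6 motif (the same ends with a spacer longer by 1 base) or the GATA form TGATAA, which 8.33%, 6.98% and 8.91% of promoters hold. These motifs were searched on both strands and a match is a run of letters, not a bound site. GC content was 54.7% in Ecm1, 63.7% in Lif and 50.7% in Serpinf1, with a median of 53% over all promoters.

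Genes that act with the 6 were looked at through 13 lists with 156 other genes, among them receptors, ligands of the same families and matrix genes. At day 3, 50 of them passed the minimum, 16 were higher in NLRP3KO by 2-fold or more and 9 lower by as much, with a median of 0.53 beside 0.11 over all genes kept, of which 25.4% were higher and 27.2% lower. At day 6, 36 passed, 13 were higher and 16 lower, with a median of -0.16 beside -1.52 over all genes kept, of which 20.9% were higher and 53.8% lower. In naive cells 65 passed and none was 2-fold apart in either direction, where 0.210% of all genes kept were higher and 2.32% lower. Most of the named values rest on fewer than 10 fragments.

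For Ecm1, the list held genes of T cell exit and the IL-2 receptor chains. None of the 5 that passed was 2-fold apart at day 3, where 25.4% of all genes kept were higher and 27.2% lower. Il2ra, the alpha chain of the IL-2 receptor, had 43.2 FPKM in NLRP3KO, from 91 fragments, against 24.0 in WT, from 64.1 fragments, and at day 6 it had 21.6 in NLRP3KO and 23.4 in WT. Il2rb, the beta chain, had 26.4 in NLRP3KO and 12.98 in WT at day 3, and 18.1 and 11.8 at day 6. Klf2, a transcription factor of naive T cells that drives the exit receptor S1pr1, had 1.26 in NLRP3KO and 1.98 in WT at day 3, against 146.9 and 94.7 in the naive libraries. At day 6, 2 genes of this list were 2-fold apart, where 20.9% of all genes kept were higher and 53.8% lower. Klf2 was at 4.62 in NLRP3KO and 1.06 in WT, from 1.1 fragments each. S1pr1 was at 0 in NLRP3KO and 3.08 in WT, from 5.2 fragments. With 5066 fragments on genes in NLRP3KO and 28386 in WT, neither gene sets these libraries apart.

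For Lif, the receptor and signal genes of the IL-6 family gave 3 of 5 at least 2-fold higher at day 3 and none lower, where 25.4% and 27.2% of all genes kept were. At day 6, 1 of 4 was higher and 2 were lower, where 20.9% and 53.8% were. Socs3, the feedback inhibitor of this pathway, had 13.1 FPKM in NLRP3KO, from 16.9 fragments, against 3.21 in WT, from 5.3 fragments, and their bounds did not overlap. Stat3, its transcription factor, had 10.2 in NLRP3KO, from 13.5 fragments, against 2.29 in WT, from 3.9 fragments, also with bounds apart. At day 6 Socs3 had 5.98 in NLRP3KO and 0.688 in WT, from 2.1 and 1.1 fragments, whereas Stat3 had 1.80 in NLRP3KO and 4.14 in WT. Lifr, the receptor chain for LIF itself, was listed at 0 in every Th2 library and so was not detectable at these depths. Osmr was at 0 in every library. Il6st, the shared receptor chain gp130, had 2.38 in NLRP3KO and 1.87 in WT at day 3, and the kinase Jak1 had 6.94 and 4.18. At day 6 Jak1 was listed at 0 in NLRP3KO and had 3.10 in WT, from 9 fragments. At the depth of that NLRP3KO library the 0 does not show a lower level. Osm, the family member beside Lif on the chromosome, had 1.19 in NLRP3KO and 0.940 in WT at day 3, from 1.1 fragments each, and was listed at 0 at day 6.

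For Il24, 3 of the 4 other IL-10 family cytokines were listed at 0 in all 6 libraries. The remaining one, Il10, had 5.44 FPKM (from 6.8 fragments) in NLRP3KO at day 3 and was listed at 0 in WT, and it was at 0 in both day 6 libraries. Il20 and Il19, the next genes after Il24 on the chromosome, were among those at 0. Of the receptor chains, 3 of 6 were at 0 in all libraries, Il20ra and Il22ra1 among them, and Il20rb was at 0 in every Th2 library. Il10ra had 1.26 in NLRP3KO, from 2.1 fragments, and 0 in WT at day 3. At day 6 it had 0 in the shallow NLRP3KO library and 1.59 in WT, from 3.1 fragments. The broader list of T cell cytokines and chemokines went both ways at day 3, with 5 of 15 higher and 6 lower beside 25.4% and 27.2% of all genes kept, and Il9 had 10.8 in NLRP3KO and 4.25 in WT from 5.5 and 2.7 fragments. At day 6, 2 of 8 were higher and 5 lower, beside 20.9% and 53.8%. Of the cytokines that Th2 cells are known for, Il13 was listed at 0 in every library and Il5 in every Th2 library. Il4 was at 0 in every library but WT day 3, where 3.77 (0 to 18.9) came from 0.2 fragments. None of these was detectable in the Th2 libraries at these depths.

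For Penk and Tgm2, few related genes were measurable. Among 10 other genes of opioid precursors, processing and receptors, 2 passed at day 3 and 5 were at 0 in all libraries, and Ogfr, the opioid growth factor receptor, had 0.982 FPKM in NLRP3KO and 3.09 in WT at day 3, from 1.1 and 4.3 fragments. At day 6, where Ogfr alone of these 10 passed, it had 7.20 in NLRP3KO and 1.66 in WT, from 2.1 fragments each. Of 14 transglutaminases and partners, 2 passed at day 3 with none 2-fold apart. At day 6, 3 passed, all higher, from 1 to 2.1 fragments in NLRP3KO. Of all genes kept, 25.4% were higher and 27.2% lower at day 3, and 20.9% and 53.8% at day 6. Itgb1, an integrin chain known to bind transglutaminase 2, had 1.56 in NLRP3KO and 2.45 in WT at day 3, and 3.81 and 1.32 at day 6.

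For Serpinf1, 1 of 13 other serpins passed at day 3 (Serpinb6b, with 2.46 FPKM in NLRP3KO and 0.966 in WT), and none was 2-fold apart. Of 5 proposed PEDF receptors, 2 passed at day 3 with none 2-fold apart, and Rpsa, the laminin receptor and a ribosomal protein whose values are uncertain because of its many pseudogenes, had 46.6 in NLRP3KO and 32.8 in WT at day 3, and 22.5 and 54.8 at day 6. Few matrix protein genes were measurable, with 1 of 25 passing at day 3. That gene, Lama5, the laminin alpha 5 chain, had 3.37 in NLRP3KO, from 18.2 fragments, against 0.442 in WT, from 3 fragments. Of 20 matrix enzymes and inhibitors 4 passed at day 3, 1 higher and 1 lower. Of 12 secreted lectins and others 10 passed, 4 higher and 1 lower, where 25.4% and 27.2% of all genes kept were. Ctsd, a lysosomal protease, had 5.82 in NLRP3KO and 0.915 in WT at day 3, from 5.4 and 1.1 fragments. At day 6 it had 8.53 and 0.980, from 2.2 and 1.1 fragments. Cst3, a secreted protease inhibitor, was listed at 0 in NLRP3KO at day 3. In WT it had 5.56 (0 to 11.2) from 1.9 fragments, under the floor of 3, so it does not set these libraries apart.

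**Figure D3:**
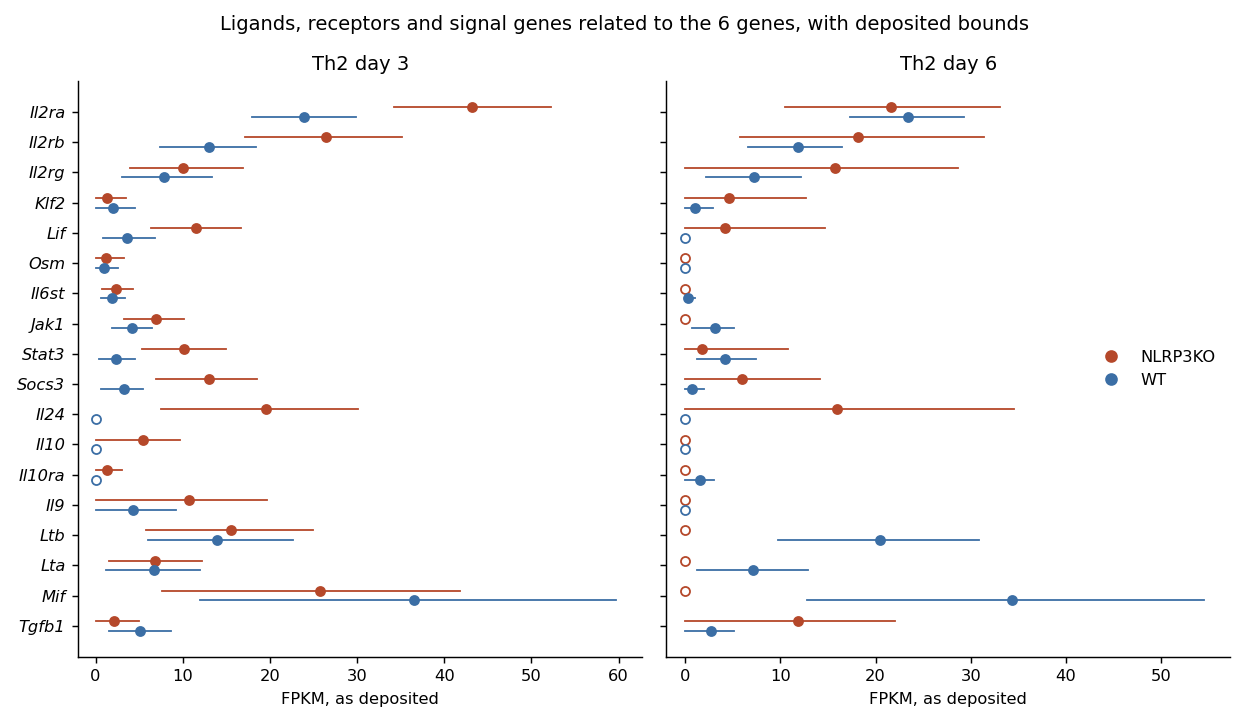
FPKM as deposited (horizontal axes, linear, a separate range for each time) of 18 ligands, receptors and signal genes at day 3 (left) and day 6 (right), with deposited bounds as lines, NLRP3KO above WT for each gene and open points for values listed at 0. At day 3 the bounds are apart for Il2ra, Stat3, Socs3 and Il24, and at day 6 the lines of NLRP3KO are wide or the gene is at 0, as for Ltb, Lta and Mif.

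Markers of other cell types gave little signal in the Th2 libraries. Of 7 fibroblast markers, Col1a1 had 0.462 FPKM, from 1 fragment, in NLRP3KO at day 3, and every other value in the 4 Th2 libraries was 0. Of 8 macrophage and dendritic cell markers, Emr1 had 0.679, from 1 fragment, in NLRP3KO at day 3, with all others at 0 in these 4. The 5 mast cell and basophil markers, the 4 markers of CD8 T and NK cells and Foxp3 were at 0 in all 4, while in the Th2 libraries Pecam1 had 0.678 in NLRP3KO day 3 and 1.14 in WT day 6, and Cd79b 1.57 in WT day 3. At these depths a 0 allows up to 3 fragments per gene.

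The pattern of Ecm1 over the 6 libraries was closest to that of Tgm2. Likeness was the root mean square difference between log2 profiles centred on each gene's mean, over 6479 genes that reached an FPKM of 5 in any library, so a small value means a like profile. Tgm2 was at 0.40 from Ecm1, Aldoc, the brain-type aldolase of glycolysis, at 0.43, and Sema4f, a semaphorin, at 0.45. Among the chosen genes, Serpinf1 ranked 15, Il24 35, Penk 38 and Lif 54. Since the 6 were chosen for high values in the same libraries, these ranks describe the choice as well.

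Without the shallow NLRP3KO day 6 library, 0 of those 3 nearest genes stayed among the nearest 3. Ero1l, an oxidase of the endoplasmic reticulum, was then at 0.15 from Ecm1, Slc2a3, a glucose transporter, at 0.18, and Bnip3, a mitochondrial protein, at 0.23, with Tgm2 at rank 5. Ero1l had 25.1 FPKM in NLRP3KO and 3.49 in WT at day 3, and Slc2a3 had 35.3 and 5.64. The nearest to Tgm2 were Ecm1 at 0.40, Ero1l at 0.53 and Armcx6 at 0.56, and without the NLRP3KO day 6 library Ecm1, Ero1l and Egln3, an oxygen-sensing prolyl hydroxylase.

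**Figure D4:**
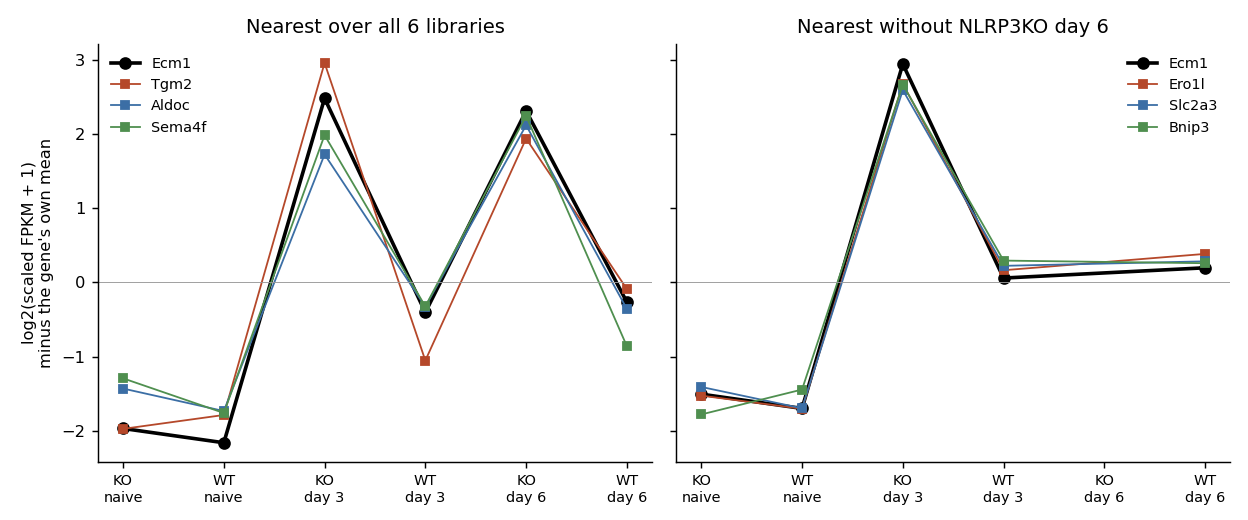
Profiles of Ecm1 (black) and of the 3 genes closest to it, as log2 of scaled FPKM plus 1 minus each gene's own mean (vertical axis), over all 6 libraries (left) and without NLRP3KO day 6 (right). On both sides the NLRP3KO day 3 point stands above the WT day 3 point for each gene, and on the left Tgm2, at 0.40 from Ecm1, has a higher day 3 peak and a lower WT day 3 point.

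Genes beside the 6 on the chromosome were compared in the same way. Of 24 neighbours, the nearest 2 on each side, 11 passed the minimum at day 3, 4 of them at least 2-fold higher in NLRP3KO (25.4% of all genes kept were) and none lower (27.2% were). Adamtsl4 and Mcl1, both before Ecm1, were among the 4, with 4.54 FPKM in NLRP3KO and 0 in WT for Adamtsl4, a secreted matrix protein, and 18.3 and 3.96 for Mcl1, a survival protein of the BCL2 family. Gatsl3 beside Lif had 7.50 in NLRP3KO and 0 in WT, and Impad1 beside Penk had 1.41 and 0.370. The neighbours were not set against counting error, and at these depths a 0 does not show absence. At day 6, 8 passed, 4 higher and 1 lower, beside 20.9% and 53.8% of all genes kept. Serpinf2, beside Serpinf1, was at 0 in all 4 Th2 libraries. Lif and Serpinf1 share chromosome 11 with Nlrp3, at distances of 55.18 and 15.84 Mb.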

How the data were processed

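Per the file headers, each library's deposited table gives FPKM per gene with confidence bounds and a status. TopHat, Cufflinks and mm9 are named in the submitters' processing notes, without versions, and the annotation is not given in the sources used here. Of 23700 entries, 285 without enough data were left out. Coordinates are counted from 1. As FPKM are no counts, count models were not applied. Libraries were scaled by the median ratio over the 1059 genes with FPKM of at least 1 in all 6, with multipliers at day 3 of 1.78 (NLRP3KO) and 2.02 (WT), at day 6 of 1.62 and 1.83, and in naive cells of 0.245 and 0.328. A pseudocount of 1 was added before log2, which understates differences of genes with low values, and a 2-fold difference was counted. Printed FPKM are unscaled. With 1 library per group no p-value was computed.

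Fragment numbers are inferences: the deposited bounds are whole multiples of the value of 1 fragment for 88.1% to 94.3% of genes with a lower bound above 0 in the Th2 libraries, and for 55.7% in naive NLRP3KO and 53.1% in naive WT (whole numbers up to 80, relative tolerance 2e-05). Where whole numbers disagreed more than 2-fold with the width of the bounds (1108 genes) or none was found (108), the width was used. Ratio intervals are exact binomial (Clopper-Pearson, 95%) on rounded fragments, scaled as the FPKM. PCR reads without molecular identifiers are not independent molecules. On simulated data with bounds of this whole-number form, the value of 1 fragment was recovered within 10% for 100% of 500 genes solved over 6 libraries, and within 1% for 93.4% of 500 solved in 1 library, which does not test whether the deposited bounds have that form.

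The 6 genes and all lists were chosen with earlier results of these data known. The rule for named list genes took those that reached an FPKM of 5 in any library, up to 5 per list by their Th2 level, else the highest gene. Serpinb6b and the chromosome neighbours were named after their values were seen. Alternatives were 4 other scalings, pseudocounts of 0.25 and 5, and a minimum FPKM of 5 or none. Promoter sequences are from RefSeq, GRCm38.p6, and 3 of the 6 genes matched. Python 3.11.15, numpy 2.4.6, pandas 2.3.3 and matplotlib 3.10.9 were used.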

Additional observations from a re-analysis of the deposited data

Results flagged for a closer look

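In 3 genes the differences of the 2 genotypes had opposite signs under the same contrast. Each rests on 1 library per group, so the difference between genotypes was not tested. Penk differed between day 3 and naive cells by 3.78 log2 units in NLRP3KO and by -0.43 in WT, where it was listed at 0 at day 3 and a level at its floor of 3 fragments would give 2.58. Tgm2 differed between day 6 and day 3 by -1.02 in NLRP3KO (4 and 29 fragments) and by 0.96 in WT (3 and 1 fragments). Ecm1 differed between day 6 and day 3 by -0.17 in NLRP3KO and 0.14 in WT, with counting ratios of 0.886 (0.441 to 1.66) and 1.11 (0.353 to 3.60).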

How the results depend on the processing

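No paired analysis was possible because the groups have 1 library each and no replicate numbers to pair, and no replicate could be left out. A fit with the 3 stages as pairs was not run, since the genes were chosen on 2 of them. Under the 8 alternatives the 6 genes kept at least 2-fold higher values in NLRP3KO at both Th2 times wherever they passed the minimum. Their medians were 2.47 to 3.80 at day 3 and 1.91 to 5.04 at day 6. The genes were chosen for high values in these libraries, so this describes the choice. Of all genes kept, 25.2% were as much higher at day 3 and 11.4% at day 6 with upper-quartile scaling. Scaled by fragments on genes, 26.5% and 27.8% were. Without scaling, the WT difference of day 3 from naive had a median of 0.11 with 1 gene higher, and Ecm1 changed sign, to -0.52. That median was 0.85 with a pseudocount of 5, and 1 gene was higher with a minimum FPKM of 5. The median of naive NLRP3KO minus WT was -0.15 with no minimum. From day 3 to day 6, the NLRP3KO median was -1.52 with upper-quartile scaling, and Ecm1 lay between -1.06 and 0.27 over the alternatives. The WT median was -1.65 with a pseudocount of 0.25, with 1 gene higher, and 0.14 with a minimum of 5. For these changes the cause was not tested. Scaling moves the median of all genes too: day 3 minus naive in NLRP3KO was -0.53, and -2.33 as deposited. Depth limits the day 6 values, where 4 of the 6 genes had 1 or 2 fragments in NLRP3KO and 0 in WT.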
